A study of Mus musculus with 66 samples.

Results

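The genes described here are 10 genes of the spermatogonial stem cell niche: the ligands Kitl and Gdnf, the receptors Kit, Gfra1 and Ret, and the germ cell regulators Etv5, Bcl6b, Zbtb16, Lin28a and Neurog3. Members were all probe sets whose platform annotation named one of these genes and no other, which gave 20 probe sets out of 29131 that named 1 gene and 36899 in all. Every one of the 10 genes was carried. Of the 20, 14 reached a signal of 50 on 2 or more arrays, and these 14, from 9 of the 10 genes, were tested.

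The series follows the mouse testis from birth to adulthood. Whole testes of BL/6-129 mice were taken at postnatal days 0, 3, 6, 8, 10, 14, 18, 20, 30, 35 and 56 and their total RNA was measured, in 2 numbered samples for each age. No treatment and no mutant allele is named in the labels, and age is the only difference between the groups that they name. Each numbered sample was taken as 1 RNA sample hybridised to 3 kinds of array (types A, B and C), 66 arrays in all. Whether a sample is 1 animal or several is not stated in the labels, and p-values therefore measure only the spread between these samples.

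Spermatogonial stem cells renew or differentiate under signals from the somatic cells around them. GDNF, secreted by Sertoli and peritubular myoid cells, binds the co-receptor GFRA1, and the complex activates the receptor tyrosine kinase RET on undifferentiated spermatogonia, where it maintains self-renewal. KIT ligand, made by Sertoli cells, acts on the receptor tyrosine kinase KIT, which is gained as spermatogonia differentiate and is also present on Leydig cells and mast cells.

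The values are signal intensities on a linear scale, with every array scaled to the same mean signal. Changes are given as log2(signal + 16), which understates the change of dim probe sets, with the standard error (SE) of limma's fit, with Benjamini-Hochberg adjustment of p-values across the 22191 tested probe sets. A probe set was called at an adjusted p under 0.05 and a change of at least 2-fold on this scale. Days were pooled into days 0 and 3 (4 samples), days 6 to 10 (6 samples), days 14 to 20 (6 samples) and days 30 to 56 (6 samples). In whole testis, fewer cells of a type and less RNA per cell cannot be told apart.

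Across probe sets, the samples of a day correlated with r from 0.885 to 0.976 on type A, 0.815 to 0.952 on type B and 0.809 to 0.95 on type C. Day 20 sample 1 stood apart from day 20 sample 2. Its summed signal of 3 germ cell markers was 848.8 against 2680, that of 2 erythroid markers was 5131 against 2182, and its 3′ to 5′ ratio of actin on type A, 1.116, was the lowest of the 22 arrays, which reached up to 1.78. The 3′ to 5′ ratio of GAPDH at days 6 to 20 split by sample number: on type A it was 0.642 to 0.725 in sample 1 and 0.785 to 0.944 in sample 2, while on type B it was 0.832 to 0.923 in sample 1 and 0.648 to 0.682 in sample 2. On type A the ratio was 0.9005 to 0.9886 at days 30 and 35, and 0.8767 and 0.8454 at day 56. The part of this ratio in the changes between spans was not tested. The summed germ cell signal was lower in sample 1 than in sample 2 at every day from 0 to 20. Leaving out day 20 sample 1 ended none of the 22 calls of members between the pooled spans. Markers of the labelled tissue were present: 10 of 10 Sertoli markers passed the signal filter, and the summed signal of 5 spermatid markers was at most 1390 up to day 20 and at least 27490 from day 30.

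Promoter windows are shown for members called over the first interval. Between days 0 and 3 and days 6 to 10, Kit, Zbtb16 and Lin28a (by 110808_at) were called higher. Gfra1 (by 115410_at) and Etv5 were called lower, and Kitl is shown as the ligand of Kit. Lin28a 171405_r_at went the other way and was not called (-0.56, adjusted p = 0.363 in limma's test). The drop of Gfra1 115410_at had to follow from the signal filter. Gfra1 167746_f_at (-0.75, adjusted p = 0.0595) and 165209_f_at (-0.89, adjusted p = 0.0979) were lower but not called in limma's test. The 250 bases before the listed start are given 5′ to 3′ on the gene's strand, from RefSeq's GRCm38.p6 table, which held 7 of the 10 members. Capitals mark matches to 3 motifs on either strand: the GC box GGGCGG, the ETS core CCGGAA and the TATA box TATAAA. The windows are chr5:75574737-75574986 (plus strand) for Kit, chr4:134018817-134019066 (minus strand) for Lin28a, chr19:58455399-58455648 (minus strand) for Gfra1, chr16:22439571-22439820 (minus strand) for Etv5 and chr10:100015571-100015820 (plus strand) for Kitl. Kit and Etv5 have 2 listed starts each, and the first is shown.
Kit: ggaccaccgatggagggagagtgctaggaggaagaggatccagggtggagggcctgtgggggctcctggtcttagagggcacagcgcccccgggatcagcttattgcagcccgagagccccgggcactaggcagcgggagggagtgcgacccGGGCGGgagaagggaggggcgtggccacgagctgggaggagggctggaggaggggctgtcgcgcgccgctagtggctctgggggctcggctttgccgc
Lin28a: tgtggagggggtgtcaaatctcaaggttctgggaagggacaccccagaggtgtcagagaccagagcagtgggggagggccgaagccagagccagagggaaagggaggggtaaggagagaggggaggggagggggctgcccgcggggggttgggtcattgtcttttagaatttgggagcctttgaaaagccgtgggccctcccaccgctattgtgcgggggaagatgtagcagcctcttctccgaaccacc
Gfra1: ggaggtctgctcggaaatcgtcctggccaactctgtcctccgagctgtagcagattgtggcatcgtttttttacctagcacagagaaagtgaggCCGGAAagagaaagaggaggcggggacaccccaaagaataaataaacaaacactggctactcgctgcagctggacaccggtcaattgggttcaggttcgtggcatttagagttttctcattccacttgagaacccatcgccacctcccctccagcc
Etv5: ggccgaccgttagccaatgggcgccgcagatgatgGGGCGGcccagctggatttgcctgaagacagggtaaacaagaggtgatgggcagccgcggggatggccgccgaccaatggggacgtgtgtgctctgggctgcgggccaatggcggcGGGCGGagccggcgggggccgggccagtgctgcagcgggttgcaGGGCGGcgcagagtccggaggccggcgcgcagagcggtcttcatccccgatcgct
Kitl: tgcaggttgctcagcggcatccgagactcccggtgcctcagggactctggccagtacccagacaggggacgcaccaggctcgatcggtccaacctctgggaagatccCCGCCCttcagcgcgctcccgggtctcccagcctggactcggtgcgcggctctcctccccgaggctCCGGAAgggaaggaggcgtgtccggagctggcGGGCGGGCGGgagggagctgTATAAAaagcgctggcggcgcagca

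Of the 3 motifs, the windows of Kit and Lin28a shared none, nor did those of Gfra1 and Etv5, and Zbtb16 has no window here. Kit held 1 GC box and Lin28a none of the 3 motifs. Gfra1 held 1 ETS core, the sequence bound by ETS family factors such as ETV5, and Etv5 held 3 GC boxes and no ETS core. The window of the second Etv5 start, not shown, held none of the 3 motifs and was 62% G and C. That of the second Kit start again held 1 GC box. Kitl held 3 GC boxes, of which 2 overlap, 1 ETS core and 1 TATA box. Among 32851 windows of this length, 32.7% held a GC box, 12% an ETS core and 12.4% a TATA box. G and C made up 70.8% of the Kit window, 61.2% of Lin28a, 52.4% of Gfra1, 71.2% of Etv5 and 69.2% of Kitl, against a median of 52.4% over all windows. Overlapping matches were counted, different motifs were counted separately, and a match is a description of the letters only.

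The tested probe sets followed several courses. Kit, Zbtb16 and Lin28a 110808_at were low at birth, highest between days 6 and 14 and low again from day 18 or 20. Gfra1 and Etv5 were highest at days 0 and 3, and Kitl was high until day 14 and low from day 20. Bcl6b 167471_f_at was lowest from day 30 and Lin28a 171405_r_at low from day 14. Of the 14 probe sets, 13 were called by limma's F-test across the 11 days ( adjusted p at most 0.0311), against 50.5% of all those tested. The exception was Bcl6b 170534_i_at (adjusted p = 0.643), whose signal reached 50 on 2 arrays.

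In days 6 to 10 against days 0 and 3, 4 member probe sets were called higher and 2 lower, 6 of 14 in all, against 2.59% of all probe sets (1.4% higher and 1.19% lower). One of the lower ones, Gfra1 115410_at, passed the signal filter only through days 0 and 3 and so had to differ. In days 14 to 20 against days 6 to 10, 4 were called lower and 0 higher, against 10.2% of all (5.68% higher and 4.49% lower), and 8639 of all probe sets had an unadjusted p under 0.05. Among the 4 was Lin28a 171405_r_at, which passed the signal filter only through days 0 to 10, so that its fall was favoured by the filter. In days 30 to 56 against days 14 to 20, 3 were called lower and 0 higher, against 14.4% of all (7.74% higher and 6.66% lower). In days 30 to 56 against days 6 to 10, 9 were called lower and 0 higher, against 32.2% of all (12.6% higher and 19.5% lower). Lin28a 171405_r_at was among these 9 too, with the same limit. The counts describe these genes and are not a test of the group.

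Scaling moved the background. In the last comparison the median change of all probe sets was -0.26, and it was -0.03 when each array was scaled to the median of its type, which turned the share of calls that were higher from 39.3% to 53.7%. The share moved from 55.8% to 69.2% for days 14 to 20 against days 6 to 10, and from 53.8% to 65.9% for days 30 to 56 against days 14 to 20. Members called under this scaling numbered 5, 4, 1 and 7 in the 4 comparisons, and no called member changed direction.

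**Figure D1:**
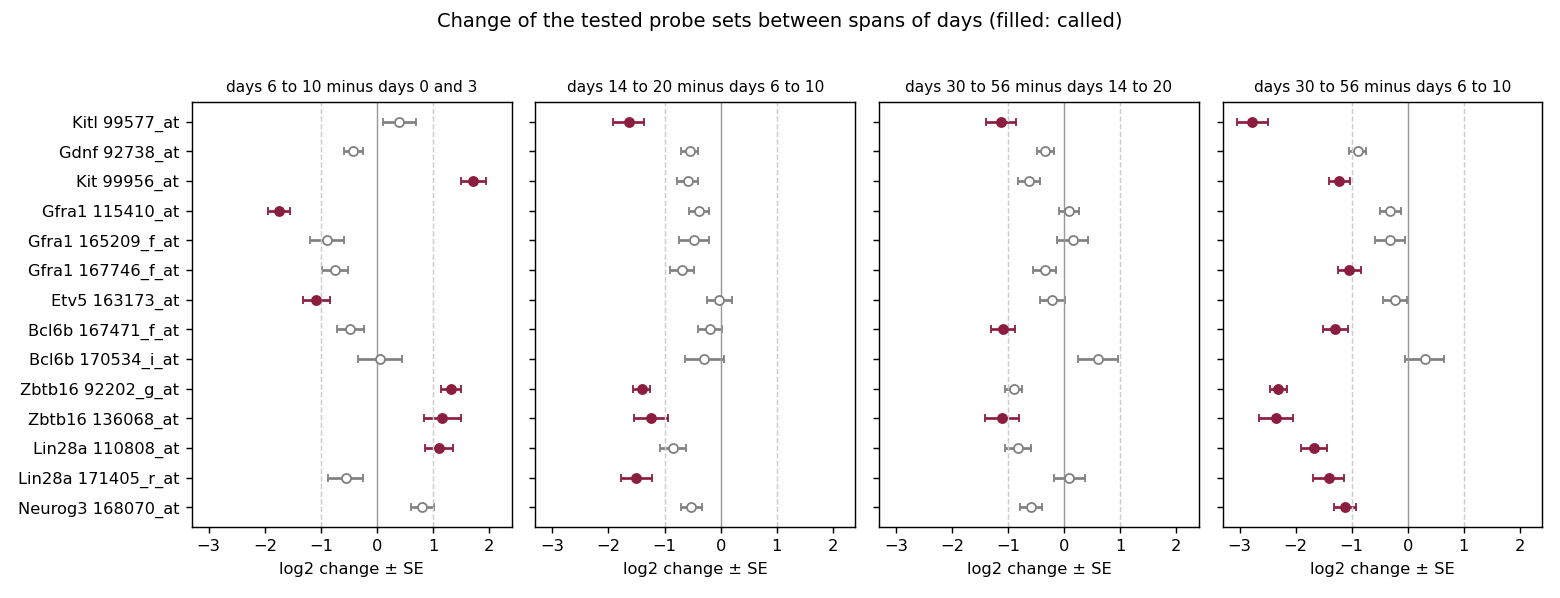
Log2 change of the 14 tested probe sets (points, with SE as bars) in the 4 comparisons between spans of days. Filled points were called, dashed lines mark a 2-fold change, and in the rightmost panel all 9 filled points lie on the negative side.

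Kitl encodes KIT ligand, also called stem cell factor, and its signal was high through day 14 and lowest from day 20 on. By probe set 99577_at, on chromosome 10, the signal was 374.3 and 462.4 at day 0, 715.8 and 717.3 at day 3, and 946.2 and 685.2 at day 6. It was 469.4 and 498.8 at day 14, 471.8 and 169.4 at day 18 and 28.3 and 166.5 at day 20. From day 30 to day 56 the 6 samples lay between 78.4 and 112.7. The samples of days 6 to 10 (lowest 520.5, median 724.0, highest 946.2) thus lay above every sample from day 14 on, and the 2 samples of day 18 were far apart.

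Kitl was called lower in days 14 to 20 than in days 6 to 10, by a log2 change of -1.64 ± 0.27 (adjusted p = 0.000175). It fell again to days 30 to 56, by -1.13 ± 0.27 (adjusted p = 0.00295), and the total change from days 6 to 10 was -2.77 ± 0.27 (adjusted p = 1.09e-07), 7.89-fold between mean signals. Without day 20 sample 1, whose Kitl signal was the lowest of all, the first fall was -1.30 and the second -1.47. The first was -0.94 without both samples of day 20, and the second was -0.89 when sample 1 of day 18 was left out and -0.79 when sample 2 of day 20 was, each with an adjusted p of at most 0.0127 but under 2-fold. The higher mean in days 6 to 10 than in days 0 and 3 (log2 change 0.40 ± 0.30, adjusted p = 0.528) was not called.

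Gdnf encodes glial cell line-derived neurotrophic factor, and its signal was lower at each later span, in small steps. By probe set 92738_at, on chromosome 15, it was 129.9 and 158.3 at day 0 and 150.0 and 159.7 at day 3. It lay between 84.4 and 139.2 (median 107.2) in days 6 to 10, between 64 and 71.4 (median 68.6) in days 14 to 20 and between 25.7 and 76.2 (median 54.6) in days 30 to 56. The 6 samples of days 14 to 20 lay below all 6 of days 6 to 10.

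No single span-to-span change of Gdnf was called. Days 14 to 20 differed from days 6 to 10 by -0.55 ± 0.15 (adjusted p = 0.0125), and days 30 to 56 from days 6 to 10 by -0.89 ± 0.15 (adjusted p = 8.87e-05), both under 2-fold. Without day 35 sample 2 the latter was -1.05, past the threshold. Against day 0, Gdnf was called lower at day 35 (-1.43 ± 0.27) and day 56 (-1.5 ± 0.27, adjusted p = 0.000217). The other Gdnf probe set, 161598_at, stayed between 2.8 and 40.6 and was not tested. The pair correlated with r = 0.44 over 22 arrays.

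The markers of the cells that make these ligands moved as follows. The summed signal of 10 Sertoli markers was 8143 to 8457 in days 0 and 3, 7965 to 9451 in days 6 to 10, 3474 to 8121 in days 14 to 20 and 2893 to 3826 in days 30 to 56. For 4 peritubular markers the ranges were 1373 to 2379, 1637 to 2364, 655.6 to 1650 and 400.5 to 559.4. From days 6 to 10 to days 30 to 56, 6 of 10 Sertoli markers and 2 of 4 peritubular markers were called lower, against 20.7% of 13472 genes, each taken by its brightest probe set. The part of these markers in the Kitl and Gdnf values was not tested.

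**Figure D2:**
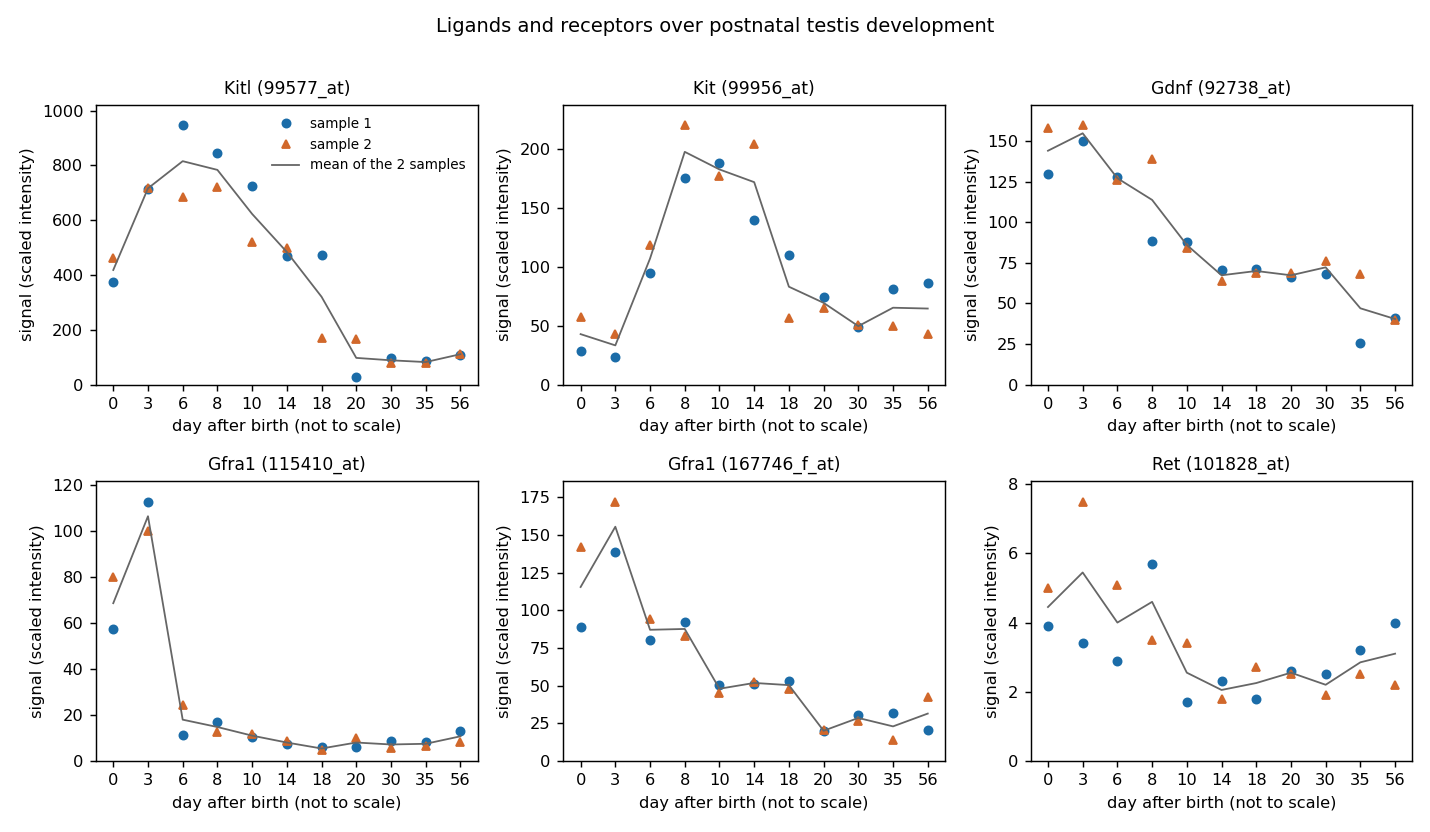
Signal (linear scaled intensity, axes from 0) by day after birth for Kitl, Kit, Gdnf, 2 Gfra1 probe sets and Ret; points are the 2 samples of a day and the line joins their means. Kitl drops between days 14 and 20, Kit is highest at days 8 to 14, Gfra1 115410_at drops between days 3 and 6, and Ret stays at or below 7.5.

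Kit, the receptor of KIT ligand, rose after day 3 and came down again after day 14. By probe set 99956_at, on chromosome 5, the signal was 28.1 and 57.6 at day 0 and 23.6 and 43.0 at day 3. It was 95.2 and 119.0 at day 6, 175.3 and 220.2 at day 8, 188.0 and 177.6 at day 10 and 139.8 and 204.2 at day 14. Days 18 to 56 held signals between 43.3 and 109.7. Every sample of days 6 to 10 lay above every sample of days 0 and 3, and every sample of days 30 to 56 lay below them.

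Kit was called higher in days 6 to 10 than in days 0 and 3, by 1.72 ± 0.22 (adjusted p = 9.54e-05), 4.27-fold between mean signals. It was called lower in days 30 to 56 than in days 6 to 10, by -1.22 ± 0.19 (adjusted p = 3.28e-05). The steps between, -0.59 ± 0.19 to days 14 to 20 and -0.63 ± 0.19 from there to days 30 to 56, were under 2-fold (adjusted p = 0.0286 and 0.0150). Neither call was lost when any 1 sample was left out.

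Among markers of other cells that carry KIT, 2 of 5 tested Leydig markers (Cyp11a1 and Hsd3b1) and 1 of 5 tested mast cell markers (Cma1) were called lower over the first interval, and the other 7 were not called. Of 3 germ cell markers, 2 were called higher, where 1.57% of all genes were called higher and 1.38% lower. The summed signal of 5 Leydig markers was 1541 to 3583 in days 0 and 3 and 951.2 to 1261 in days 6 to 10. That of 7 mast cell markers was 591.4 to 1049 and then 408 to 585.5, and Mcpt4 and Fcer1a among them stayed under 50 on every array. The summed signal of 3 germ cell markers was 150.1 to 572.4 in days 0 and 3 and 776.2 to 2014 in days 6 to 10, so that the groups did not overlap. The part of the germ cell share in the Kit change was not tested.

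Gfra1, the co-receptor that binds GDNF, was read by 4 probe sets, of which 3 were tested, and all 4 had their highest mean in days 0 and 3. By 115410_at, on chromosome 19, the signal was 57.2 and 80.0 at day 0, 112.8 and 100.1 at day 3 and 11.3 and 24.5 at day 6. From day 8 on it stayed between 4.9 and 16.7. The days before and after this drop did not overlap. This probe set passed the signal filter through its 4 samples of days 0 and 3 alone, so it could be tested only because it was high there. Its drop from those days had to follow from this choice, and its values are given as a description. Probe set 165209_f_at reached 50 in both samples of day 3 and in sample 2 of days 0 and 6.

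The change of 115410_at from days 0 and 3 to days 6 to 10 was -1.75 ± 0.20, 6.03-fold between mean signals. The drop from day 3 to day 6 alone was -1.88 ± 0.32. At this step 0.0676% of all probe sets passed the threshold, a share that is no measure for a probe set tested only because it was high before. Without 1 sample, that step missed the threshold in 16 of 22 runs.

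The other Gfra1 probe sets had the same direction over this interval with smaller changes. Probe set 167746_f_at was at 88.9 and 141.9 at day 0 and 138.8 and 172.1 at day 3, and its samples lay between 45.2 and 94.0 in days 6 to 10, between 19.5 and 53.0 in days 14 to 20 and between 14.1 and 42.1 in days 30 to 56. Its first change was -0.75 ± 0.23 (adjusted p = 0.0595) and was not called, and that of 165209_f_at was -0.89 ± 0.31 (adjusted p = 0.0979). The latter passed the threshold when sample 1 of day 0 (-1.20) or sample 2 of day 10 (-1.11) was left out. Days 30 to 56 against days 6 to 10 were called for 167746_f_at alone, by -1.04 ± 0.21 (adjusted p = 0.000293). That change was -0.93 when either sample 2 of day 35 or sample 1 of day 56 was left out, and -0.84 with median scaling. Between pairs of Gfra1 probe sets, r over 22 arrays was 0.49 to 0.793. The ending _f_at marks, by the array maker's convention, probes shared by a family of similar sequences.

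Ret, the kinase that signals for the GDNF and GFRA1 complex, had no usable signal. Its 1 probe set, 101828_at on chromosome 6, was between 1.7 and 7.5 on all 22 arrays. It did not pass the filter and was not tested, and a change in Ret was not detectable at this signal.

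Ligands were set against receptors as the difference of log2(signal + 16) in each sample. The size of such a difference depends on the probes, so only its change between spans was compared. Kitl minus Kit was 2.70 to 4.21 in days 0 and 3, 1.47 to 3.11 in days 6 to 10, -1.02 to 1.96 in days 14 to 20 and 0.07 to 1.12 in days 30 to 56. Every sample of days 30 to 56 lay below every sample of days 6 to 10.

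The balance of Kitl to Kit was lower in days 30 to 56 than in days 6 to 10 (mean difference -1.55). A two-sided exact permutation test gave p = 0.00216, the smallest this design can give, and an adjusted p of 0.0173. The adjustment ran over 12 comparisons, of which the 4 of Gdnf and Gfra1 and the 4 of Gdnf and Ret are given no p. The adjusted p-values of Kitl and Kit thus depend in part on comparisons that are not used, and would differ over those of Kitl and Kit alone. The balance differed by -1.32 between days 6 to 10 and days 0 and 3 (exact permutation test, p = 0.01905 before adjustment). Between days 14 to 20 and days 6 to 10 it differed by -1.05 (exact permutation test, p = 0.02381 before adjustment). After adjustment over the 12 comparisons p was 0.0571 for both, and neither passed 0.05 in that family. By the exact permutation test, the first passed when sample 1 of day 6 was left out (-1.52, adjusted p = 0.0476). It also passed without sample 1 of day 18 or of day 20 (-1.32, 0.0457 for both). These days are not in that comparison, so only the adjustment moved there. By the same test, the other was -1.23 (0.026) without sample 1 of day 18 and -0.64 (0.0952) without that of day 20. The last step, days 30 to 56 against days 14 to 20, was -0.50 (adjusted p = 0.421, exact permutation test), and -0.99 (adjusted p = 0.0381) without the samples of day 20. Without day 20 sample 1, where the difference was -1.02, the lowest of all, this step was -0.91 (adjusted p = 0.0173, exact permutation test).

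The mean balance of Gdnf to Gfra1 was 0.16, 0.49, 0.63 and 0.64 over the 4 spans. Gdnf was read on type A and Gfra1 (167746_f_at) on type C, which were scaled separately, so the values are given with no test. The difference was -0.10 to 0.48 in days 0 and 3, -0.05 to 0.71 in days 6 to 10, 0.23 to 1.22 in days 14 to 20 and -0.19 to 1.49 in days 30 to 56. The spans overlapped. With 115410_at as the Gfra1 probe set, days 6 to 10 were 1.32 above days 0 and 3. This restates the drop of a probe set that passed the signal filter through days 0 and 3 alone.

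Gdnf minus Ret is plotted with no test. Ret stayed at or below 7.5, where it had no usable signal, so that the difference restates the Gdnf signal.

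**Figure D3:**
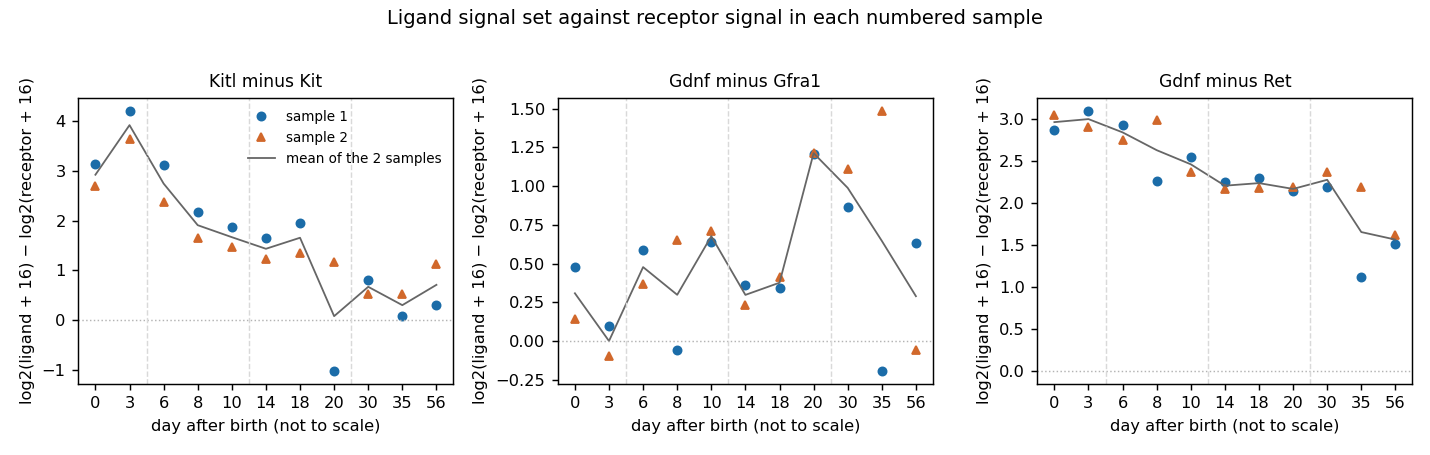
Difference of log2(signal + 16) between ligand and receptor in each numbered sample, by day after birth; dashed lines separate the 4 spans and the grey line joins day means. Kitl minus Kit is 2.70 or more at days 0 and 3 and at most 1.12 at days 30 to 56, and Gdnf minus Gfra1 overlaps between spans.

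Etv5, an ETS transcription factor that GDNF induces in spermatogonia and that Sertoli cells also use, was highest at birth. By probe set 163173_at, on chromosome 16, the signal was 243.8 and 425.7 at day 0 and 275.9 and 137.1 at day 3. Days 6 to 10 lay between 79.6 and 136.4, just below the lowest of these, and days 14 to 56 between 57.9 and 159.5. Etv5 was called lower in days 6 to 10 than in days 0 and 3, by -1.08 ± 0.24 (adjusted p = 0.0105), 2.42-fold between mean signals.

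This call of Etv5 rested on single samples. The change was -0.89 (adjusted p = 0.0547) when sample 2 of day 0 was left out, -0.85 (adjusted p = 0.0691) for sample 1 of day 3, and -0.74 (adjusted p = 0.26) without day 0. The F-test over all days was at an adjusted p of 0.0104, and at 0.0746 without day 0 sample 2. From days 6 to 10 on, no pooled change of Etv5 was called (log2 changes -0.02, -0.21 and -0.23, of which the first turned to 0.12 and the last to 0.03 with median scaling).

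Bcl6b, a transcriptional repressor among the GDNF-induced genes, was read by 3 probe sets that did not move together (r from -0.178 to 0.372 over 22 arrays). By 167471_f_at, on chromosome 11, the signal was 263.0 and 299.5 at day 0, 141.0 and 177.5 at day 3, 97.7 to 200.9 (median 158.6) in days 6 to 10, 105.5 to 192.2 (median 120.5) in days 14 to 20 and 25.4 to 73.3 (median 57.8) in days 30 to 56. The 6 latest samples lay below all earlier ones. This probe set changed by -1.09 ± 0.22 from days 14 to 20 to days 30 to 56 (adjusted p = 0.000657) and differed by -1.29 ± 0.22 from days 6 to 10 (adjusted p = 6.71e-05).

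The first of these changes of 167471_f_at lay at the 2-fold threshold. It was -0.99 when sample 1 of day 18 was left out, -1 for sample 2 of day 35, -0.96 for sample 1 of day 56, and -0.93 with median scaling. Probe set 170534_i_at had signals of 3.4 to 63.6 with no call, and 94189_at, at 12.3 to 57.2, was not tested. Which of the 3 reads Bcl6b best cannot be told from these data.

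Zbtb16 encodes the zinc finger repressor PLZF, a marker of undifferentiated spermatogonia needed for their maintenance. By 92202_g_at, on chromosome 9, the signal was 57.8 and 74.2 at day 0, 138.4 and 122.4 at day 3, 284.5 and 248.8 at day 6 and 294.1 and 275.2 at day 8. It was 169.1 and 196.8 at day 14, 110.0 and 44.1 at day 18, and 25.8 to 55.2 in days 30 to 56. The samples of days 6 to 10 lay above all others, and the 2 samples of day 18 lay far apart.

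Zbtb16 by this probe set was called higher in days 6 to 10 than in days 0 and 3, by 1.32 ± 0.17 (adjusted p = 0.000101), and lower in days 14 to 20 than in days 6 to 10, by -1.41 ± 0.15 (adjusted p = 1.62e-06). The total change to days 30 to 56 was -2.31 ± 0.15 (adjusted p = 5.43e-10), 6.42-fold between mean signals. Without day 0 the first change was 0.90, under 2-fold. From days 14 to 20 to days 30 to 56 the change was -0.90 ± 0.15, under 2-fold, and it was past the threshold without day 18 sample 2 (-1.07) and without day 20 (-1.25). The step from day 14 to day 18 was -1.19 ± 0.26 (adjusted p = 0.0125), where 3.73% of probe sets were called, and it was lost in 3 of 22 runs that left out 1 sample, those that left out either sample of day 14 or sample 2 of day 18, with an adjusted p of up to 0.135.

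A second Zbtb16 probe set, 136068_at on type C, had the same course (r = 0.818 over 22 arrays) with wider spread between samples. It was at 283.7 and 85.1 at day 0 and 384.6 and 168.8 at day 3, between 349.7 and 632.6 in days 6 to 10 and between 34.1 and 137.7 in days 30 to 56. The early samples lay far apart, and sample 1 was above sample 2 on both days. Its first change, 1.16 ± 0.33 (adjusted p = 0.0468), lost its call in 16 of 22 runs that left out 1 sample, among them those without sample 2 of day 0 (0.77) or of day 3 (0.88). It changed by -1.24 ± 0.30 to days 14 to 20 (adjusted p = 0.00429, and -0.88 at 0.0813 without day 20) and by -1.11 ± 0.30 to days 30 to 56 (adjusted p = 0.00665). The latter was -0.87 when sample 1 of day 14 was left out, -0.98 for sample 2 of day 56, and -0.93 with median scaling. The total change from days 6 to 10 to days 30 to 56, -2.35 ± 0.30 (adjusted p = 2.69e-06), was close to that of the other probe set.

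The third Zbtb16 probe set, 92201_at, was at 6.4 to 24.6 on 21 arrays and at 64.5 in day 56 sample 1. On the same type A array the dim Neurog3 probe set 99814_at was at 42.4, against 2.6 to 6.4 in the other 21. Neither was tested.

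**Figure D4:**
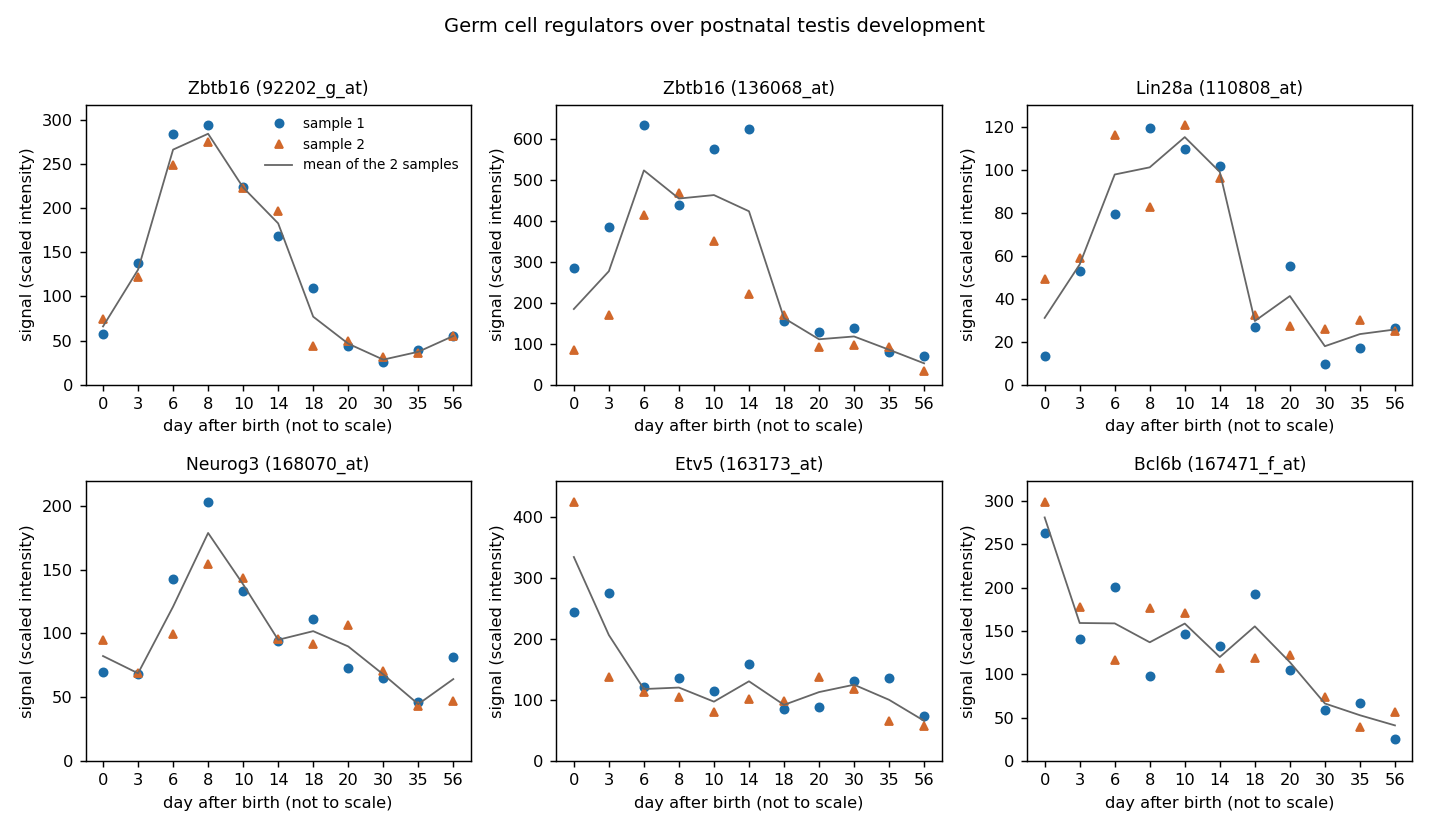
Signal (linear scaled intensity, axes from 0) by day after birth for 2 Zbtb16 probe sets, Lin28a, Neurog3, Etv5 and Bcl6b; points are the 2 samples of a day and the line joins their means. Zbtb16, Lin28a and Neurog3 are highest between days 6 and 14, while Etv5 and Bcl6b are highest at day 0.

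Lin28a encodes an RNA-binding protein that blocks let-7 processing and is present in undifferentiated spermatogonia. Its 2 probe sets were both low in days 30 to 56 and differed in their early course (r = 0.343 over 22 arrays). By 110808_at, on chromosome 4, the signal was 13.1 and 49.1 at day 0, 53.0 and 59.1 at day 3, 79.8 to 120.9 (median 113.1) in days 6 to 10 and 101.8 and 96.6 at day 14. It was 26.7 to 55.3 at days 18 and 20 and 9.7 to 30.2 in days 30 to 56. The samples of days 6 to 14 lay above all others.

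By 110808_at, Lin28a was called higher in days 6 to 10 than in days 0 and 3, by 1.10 ± 0.25 (adjusted p = 0.0129). Without day 0 sample 1, the lowest of the early samples, the change was 0.81 (adjusted p = 0.0684). From days 6 to 10 to days 30 to 56 it was -1.67 ± 0.23 (adjusted p = 4.96e-06), 4.69-fold between mean signals, and the call was kept in all 22 runs that left out 1 sample. By 171405_r_at the early samples were 152.2 and 56.6 at day 0 and 96.4 and 146.7 at day 3, and days 6 to 10 held 17.9 to 129.6, with a change of -0.56 ± 0.31 (adjusted p = 0.363). This probe set reached 50 on 9 arrays, all of days 0 to 10. It could thus be tested only because it was high there. Its fall to between 10 and 24.5 in days 14 to 20 (-1.5 ± 0.28) was favoured by this choice and is given as a description. Probe set 171405_r_at was already low at day 14 (24.5 and 10.8), when 110808_at was still high. The ending _r_at marks, by the array maker's convention, probes picked under relaxed rules.

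Neurog3, a basic helix-loop-helix factor of undifferentiated spermatogonia that are leaving the stem cell state, peaked at day 8 by its tested probe set. By 168070_at, on chromosome 10, the signal was 69.9 and 94.6 at day 0, 68.5 and 68.9 at day 3, 142.7 and 99.4 at day 6 and 203.5 and 154.3 at day 8. It was 72.8 to 111.5 (median 95.0) in days 14 to 20 and 42.7 to 81.7 (median 56) in days 30 to 56. All samples of days 6 to 10 lay above those of days 0 and 3. The other Neurog3 probe set, 99814_at, was at 2.6 to 42.4 (median 4.2) and was not tested. It did not move with 168070_at (r = -0.0679 over 22 arrays).

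The higher signal of Neurog3 in days 6 to 10 was under 2-fold on the log2 scale used (0.81 ± 0.21, adjusted p = 0.0267) and was not called. Days 30 to 56 were called lower than days 6 to 10, by -1.12 ± 0.19 (adjusted p = 5.77e-05). With median scaling this was -0.87, under 2-fold, with an adjusted p of 0.00107. The change from days 6 to 10 to days 14 to 20 was -0.52 ± 0.19 (adjusted p = 0.0437).

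Single days were also set against day 0. At day 3, 0 of 14 member probe sets were called against 0.027% of all, where limma gave 1338 probe sets an unadjusted p under 0.05. The first member call was Zbtb16 92202_g_at at day 6, 1 of 14 against 0.622% of all probe sets. At day 8, 3 members were called (2.24% of all), at day 10, 5 (4.22%), and at day 14, 6 (9.24%), 3 higher and 3 lower. At days 18, 20, 30, 35 and 56 there were 3, 7, 6, 8 and 8 members called, all lower, where the shares of all probe sets were 19.3%, 22.8%, 32%, 33% and 32.9%. Calls higher than day 0 came from Zbtb16 92202_g_at at days 6 to 14, Kit at days 8 to 14 and Lin28a 110808_at at days 10 and 14. The lower calls from day 8 on include Gfra1 115410_at, which had to differ from day 0 by the filter. Between neighbouring days members were called at 2 steps, Gfra1 115410_at from day 3 to day 6 and Zbtb16 92202_g_at from day 14 to day 18, both described above. At the other steps 0 members were called, where limma gave 507 to 4515 of all probe sets an unadjusted p under 0.05. Called there were 0.00901% of all probe sets from day 6 to day 8, 0% from day 8 to day 10, 0.518% from day 10 to day 14, 0% from day 18 to day 20, 5.83% from day 20 to day 30, 0.00451% from day 30 to day 35 and 0.0135% from day 35 to day 56. The calls of Kit at days 8 and 14 and of Zbtb16 at day 14 were lost without sample 2 of the later day (adjusted p = 0.0706, 0.0556 and 0.0506). Those of Lin28a were lost without sample 1 of day 0 (0.198 at day 10 and 0.25 at day 14) and without either sample of the later day. Of the 49 member calls between single days, 23 were kept in every run that left out 1 sample.

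Late days differed from day 0 for some members only. Kit and Zbtb16 92202_g_at were not called against day 0 from day 18 on, nor was Lin28a 110808_at. Kitl was called lower than day 0 at days 20, 30, 35 and 56 (log2 change -1.77 ± 0.47 at day 56, adjusted p = 0.00587). Bcl6b 167471_f_at was at -2.44 ± 0.38 at day 56 (adjusted p = 5.35e-05) and Etv5 at -2.06 ± 0.37 (adjusted p = 0.000235).

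The other genes of these pathways were taken from lists drawn up with the members, each gene by its brightest probe set, against the share of 13472 genes called. Over the first interval, days 6 to 10 against days 0 and 3, 9 of 12 tested genes of differentiating spermatogonia were called higher and none lower, against 2.95% of all genes (1.57% higher and 1.38% lower). The median log2 change of the list was 1.42, against 0.01 over all genes. Stra8, which retinoic acid induces before meiosis, was at 23.7 in days 0 and 3 and 273.7 in days 6 to 10 (2.87 ± 0.18), Dmrtb1 was at 11.8 and 142.5 (2.4 ± 0.29) and the homeobox gene Rhox13 at 384.1 and 1541 (1.94 ± 0.20).

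Of 15 tested other regulators of undifferentiated spermatogonia, 3 were called higher and 0 lower over that interval (median 0.23). They were the germ cell RNA-binding gene Dazl (236.8 to 1134, log2 change 2.35 ± 0.56), the germ cell helicase gene Ddx4 (107.6 to 368.6, 1.65 ± 0.19) and Taf4b, a transcription cofactor (55.17 to 143.6, 1.13 ± 0.25). Dazl and Ddx4 mark germ cells at large. The call of Dazl was lost when sample 1 of day 0 or of day 3 was left out (adjusted p = 0.0775 and 0.0869), and that of Taf4b when sample 2 of day 3 was (0.0602).

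Niche factors and GDNF family genes had a few lower calls over the first interval, where 1.57% of all genes were called higher and 1.38% lower. Of 16 other niche factors, 0 were called higher and 3 lower (median -0.43): the chemokine Cxcl12 (638.7 to 219.1, -1.46 ± 0.18), Igf2, a fetal growth factor (3224 to 1495, -1.15 ± 0.20), and Pdgfa (374.3 to 185.4, -1.01 ± 0.26), whose call was lost in 5 of 22 runs that left out 1 sample. Of 17 tested GDNF family and target genes, 0 were called higher and 2 lower (median -0.15), Ncam1, an adhesion molecule that can serve as a GDNF receptor (218.8 to 98.4, -1.04 ± 0.19), and Egr3 (113.3 to 46.23, -1.03 ± 0.30). Egr3 lost its call in 18 of those runs, and Ncam1 lay at -1 when sample 2 of day 0 was left out and at -0.97 for sample 2 of day 8. None of 17 tested genes of KIT signalling was called over this interval (median -0.21), which is near the share of 2.95% of all genes called. In limma's test 4338 of 22191 probe sets had an unadjusted p under 0.05.

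From days 6 to 10 to days 14 to 20, where 6.86% of genes were called higher and 5% lower, the 16 niche factors had 0 higher and 6 lower. Among them were Cxcl12 (219.1 to 50.23, -1.97 ± 0.16), Igf2 (1495 to 384.8, -1.92 ± 0.18) and Wnt6 (1510 to 432.7, -1.84 ± 0.15). In differentiating spermatogonia genes 1 was higher and 2 lower: Dmrtb1 rose again (142.5 to 941.1, 2.14 ± 0.25), while the cyclin gene Ccnd2 (84.9 to 9.28, -1.79 ± 0.48) and Dmrt1 (707.4 to 290.6, -1.29 ± 0.13) fell. With means of 9.28 in days 14 to 20 and 6.28 in days 30 to 56, Ccnd2 needed samples of days 0 to 10 to pass the signal filter. Its fall was thus favoured by the filter.

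Among the 15 undifferentiated regulators over that interval, 2 were higher and 1 lower. Ddx4 rose (368.6 to 957, 1.30 ± 0.17), as did Id4, an inhibitor of differentiation (42.42 to 108.3, 1.06 ± 0.15), and the integrin gene Itga6 fell (145.5 to 56.3, -1.24 ± 0.14). Id4 was at 0.99 when sample 1 of day 6 was left out and at 0.93 for sample 2 of day 20. The GDNF family list had 1 higher, Id4 again, and 1 lower, Mycn (140.8 to 50.2, -1.35 ± 0.19). KIT signalling had 1 higher, the ubiquitin ligase gene Cbl (370.5 to 932.3, 1.19 ± 0.23, and 0.93 without day 20 sample 1), and 1 lower, Pik3r1, a regulatory subunit of PI3 kinase (567.7 to 239, -1.36 ± 0.28).

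From days 14 to 20 to days 30 to 56, with 9.06% of genes called higher and 7.47% lower, the niche factors had 0 higher and 4 lower of 16. Jag1 went from 88.1 to 19.53 (-1.41 ± 0.23), Dhh, a Sertoli cell hedgehog ligand, from 607.9 to 229.1 (-1.38 ± 0.23) and Igf1 from 578.1 to 196.5 (-1.28 ± 0.18). Differentiating spermatogonia genes had 1 higher and 5 lower of 12, with Dmrtb1 still rising (941.1 to 2800, 2.15 ± 0.25) and Rhox13 (1419 to 483.8, -1.49 ± 0.18) and Dmrt1 (290.6 to 90.53, -1.45 ± 0.13) among the lower.

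In the same comparison Gfra2, the co-receptor for the GDNF relative neurturin, was the 1 gene of 17 in the GDNF family list that was called, and it rose from 127.6 to 440.6 (1.71 ± 0.19). Undifferentiated regulators had 0 higher and 2 lower of 15, Itgb1 (954.9 to 317.3, -1.46 ± 0.13) and Taf4b (178.1 to 76.27, -1.06 ± 0.23). Taf4b was under 2-fold when sample 2 of day 18 (-0.97), sample 1 of day 20 (-0.92) or sample 2 of day 35 (-0.82) was left out. In KIT signalling 0 were higher and 1 of 17 lower, the phosphatase gene Ptpn11 (461.7 to 202.8, -1.09 ± 0.15), which was at -0.96 with median scaling and -0.94 without day 35 sample 1.

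Over the whole fall from days 6 to 10 to days 30 to 56, with 14.6% of genes called higher and 20.7% lower, 9 of 12 differentiating spermatogonia genes were lower and 1 higher (median -1.53, against -0.25 over all genes). The largest changes were those of Dmrtb1 (4.29 ± 0.25), Dmrt1 (-2.74 ± 0.13) and Usp26 (-2.07 ± 0.16). Ccnd2 was among the 9 lower genes, and its fall was favoured by the signal filter. Niche factors had 7 of 16 lower and 0 higher (median -0.88), led by Igf2 (-3.15 ± 0.18), Igf1 (-2.68 ± 0.18) and Wnt5a (-2.61 ± 0.47). Undifferentiated regulators had 5 of 15 lower and 1 higher (median -0.58), with Itgb1 at -2.31 ± 0.13, Ddx4 at 1.82 ± 0.17 and Itga6 at -1.77 ± 0.14.

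KIT signalling genes had 6 of 17 lower and 2 higher (median -0.87) over that span, led by Pik3r1 (-2.22 ± 0.28), Ptpn11 (-1.89 ± 0.15) and the adaptor gene Grb7 (-1.53 ± 0.18). The GDNF family list had 2 of 17 lower and 2 higher (median -0.18), with Mycn at -2.17 ± 0.19, the kinase gene Fyn at -1.65 ± 0.18 and Gfra2 at 1.24 ± 0.19. Gfra2 was called higher where Gfra1 167746_f_at was called lower, and the signals of these probe sets were 175.7 and 440.6 for Gfra2 and 74.13 and 27.55 for Gfra1 in days 6 to 10 and days 30 to 56.

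The summed marker signals over the same spans give the cell types beside which these changes stand. Germ cell markers (Dazl, Ddx4 and Mael) were 848.8 to 3073 in days 14 to 20 and 1977 to 2344 in days 30 to 56. The summed signal of 5 spermatocyte markers was 477.6 to 818.5 in days 6 to 10, 3918 to 18330 in days 14 to 20 and 15040 to 20390 in days 30 to 56. The summed signal of spermatid markers was 232 to 1390 in days 6 to 10 and 208 to 314.3 in days 14 to 20, and was higher only in days 30 to 56. Zbtb16, Kit and Lin28a were thus lower in days 14 to 20 and days 30 to 56 than in days 6 to 10, while spermatocyte markers were higher. This did not hold over the whole series. In days 0 and 3 the spermatocyte markers were lowest (218.1 to 477.1). Kit and Zbtb16 were also lower there than in days 6 to 10, and the Lin28a probe sets differed. At day 14 the spermatocyte markers were at 3972 and 3918. The mean of Kit was 172 at day 14, against 162.6 in days 6 to 10. Those of Zbtb16 and Lin28a were lower at day 14. The part of meiotic cells in the values of these genes was not tested. Signals of macrophage markers, 210.9 to 244.9 in days 6 to 10 and 140.8 to 217 in days 30 to 56, moved little, and Adgre1 stayed under 50 on every array. Endothelial markers were at 256.5 to 359.8 and at 58.3 to 156.8.

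**Figure D5:**
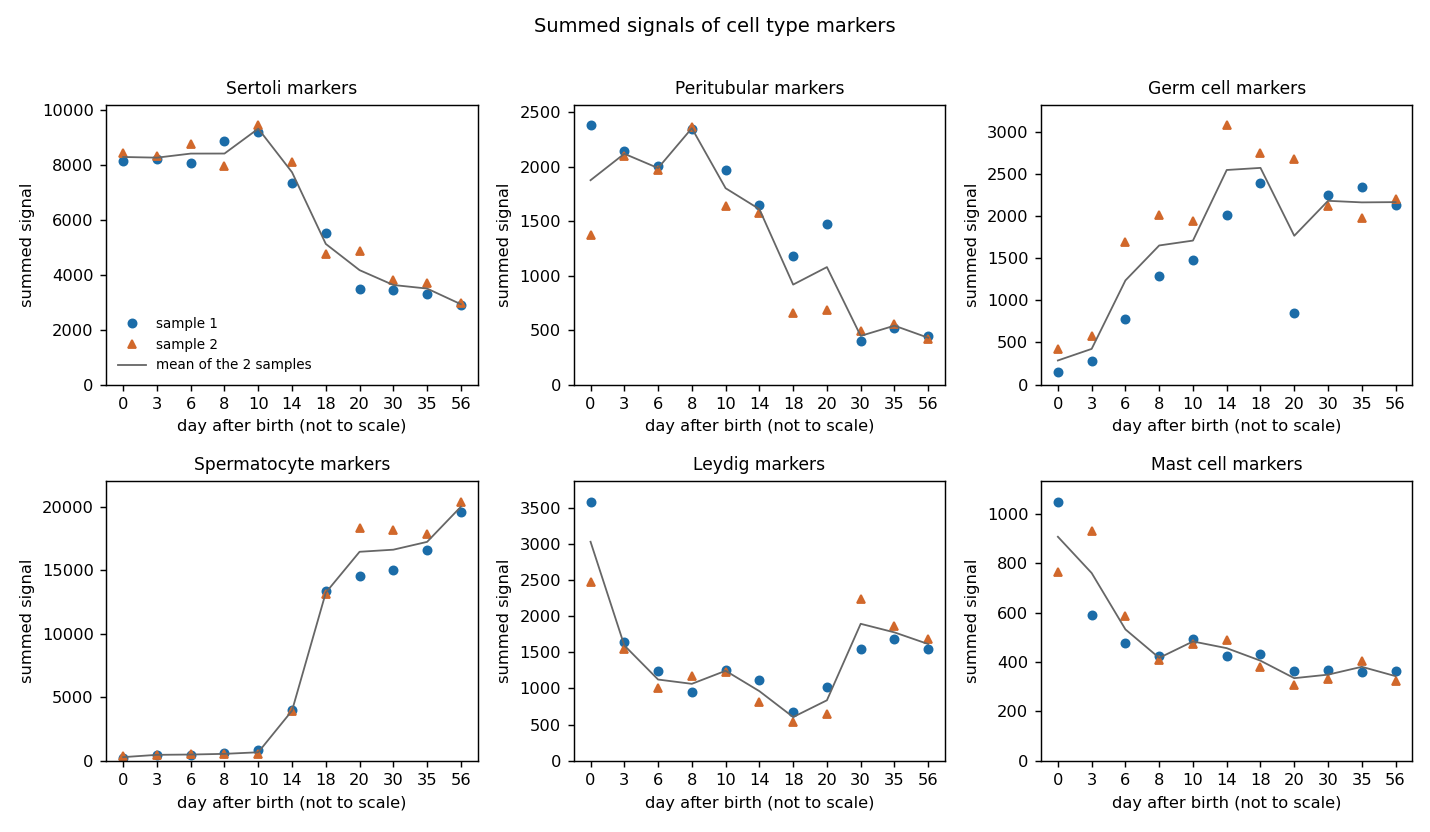
Summed signal (linear, axes from 0) of markers of 6 cell types by day after birth; points are the 2 samples of a day and the line joins their means. Sertoli signals are lower from day 18 on. So are peritubular signals, except that day 20 sample 1 (1472) lies above day 0 sample 2 (1373). Spermatocyte signals lie between 3918 and 18330 over days 14 to 20, and the germ cell signal of day 20 sample 1 (848.8) is far below that of sample 2 (2680).

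The genes whose course was most like that of each member were listed as a description. Over the 22 arrays of its type, which all genes of that type share, Kitl was most like Gng12 (r = 0.991), Mfsd14b (0.974) and Lims1 (0.972) among 6251 genes. Kit was most like Ndrg4 (0.885), Enoph1 (0.874) and Uba1y (0.873), a Y-linked gene of the differentiating spermatogonia list. Gdnf was most like Pard3 (0.906), Pdgfra (0.899) and Pdlim4 (0.893). On type C, among 4835 genes, Gfra1 167746_f_at was most like Agtr2 (0.941), Egfl6 (0.936) and Hhip (0.917).

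For the regulators, Zbtb16 136068_at was most like Ppm1l (0.919), 5730409K12Rik (0.913) and Itsn2 (0.912), and Bcl6b 167471_f_at was most like Aopep (0.925), Klc1 (0.890) and Rab5if (0.869). Neurog3 168070_at was most like Radx (0.855), Plat (0.848) and Ascl2 (0.829). On type B, among 6462 genes, Lin28a 110808_at was most like Shisa8 (0.926), Ttyh1 (0.8999) and Rab7b (0.898), and Etv5 was most like Myh10 (0.856), Cspg4 (0.837) and Git2 (0.834).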

How the data were processed

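RNA of 22 numbered testis samples was hybridised to 3 array types, giving 66 arrays with 36899 probe sets in all. The deposited values are linear signal intensities that the authors scaled to a common mean, per the labels' protocols; trimmed by 2% at each end, every array's mean was 125 in the files. What software computed these signals is not given in the sources used here. Precision is limited by the 2 samples of each day.

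Probe sets naming 1 gene in the platform annotation (29131, of which 29044 had a gene ID in the reference table) were used, and the 22191 that reached a signal of 50 on 2 or more of their type's 22 arrays were tested. With limma 3.58.1 in R 4.3.3, log2(signal + 16) was fitted on 11 day means for each array type separately, with a variance trend and 11 residual degrees of freedom. Contrasts were tested between 4 spans of days, of each day with day 0 and of neighbouring days, with an F-test over all days. Ligand minus receptor differences were compared by two-sided exact permutation tests (scipy 1.17.1, numpy 2.4.6, pandas 2.3.3, python 3.11.15). The limma steps and the permutation test were tested on simulated data.

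The members, gene lists and marker lists were chosen with earlier results of these data known. Named are all member probe sets, up to 3 called genes of each list with the largest change in each comparison of spans, and the 3 genes most like each member's brightest tested probe set. Alternatives were other pseudocounts, a floor, filters, normalizations, no variance trend, adjustment over genes, days or single samples left out, and the replicate number as a block.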

Additional observations from a re-analysis of the deposited data

How the results depend on the processing

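No called change turned its direction under the 12 alternative settings or the 22 runs that left out 1 sample. With a pseudocount of 64, the probe sets called in the 4 comparisons of spans (in the order of the report) numbered 222, 1189, 1736 and 4393 (from 574, 2257, 3196 and 7138), and the members called were 2 in days 6 to 10 against days 0 and 3, 0 in days 30 to 56 against days 14 to 20, 3 in days 30 to 56 against days 6 to 10, and 7 at least once against day 0 (from 12). Without day 0 the first comparison had 311 probe sets and 2 members. Without day 20, or adjusted over genes, the second had 2 members, and adjusted over genes the fourth had 4749 calls, over 13472 genes. The third had 5 members with a pseudocount of 1, and 1 with quantile normalization or median scaling. Steps between neighbouring days had 1 member called (from 2) with a pseudocount of 1 or 64, a filter at 125, median scaling or adjustment over genes. The cause of these differences was not tested, apart from the fewer samples or genes that some settings use.

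Of the exact permutation tests, Kitl minus Kit in days 6 to 10 against days 0 and 3 passed with a floor of 32 (-1.55, adjusted p = 0.0457) and without day 20 (-1.32, 0.0457), in days 14 to 20 against days 6 to 10 with a pseudocount of 64 (-0.95, 0.039), and in the last step without day 20 (-0.99, 0.0381). These adjusted p-values also ran over all 12 comparisons, including those that are given no p. Day 20 is not in days 6 to 10 against days 0 and 3, so leaving it out moved only the adjustment there. Gdnf minus Ret, which restates Gdnf since Ret had no usable signal and is not used as a test, was -0.17 and -0.78 for days 14 to 20 and days 30 to 56 against days 6 to 10 with a pseudocount of 1, -0.32 and -0.64 with median scaling and -0.04 and -0.08 with Gdnf by 161598_at, and -0.48 for the first change with a floor of 32. Gdnf minus Gfra1 was 0.89 for days 30 to 56 against days 6 to 10 with 161598_at and 1.32 for the first change with Gfra1 by 115410_at, across separately scaled array types. The 1.32 restates the drop of 115410_at, which had to follow from the signal filter.

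Leaving out 1 sample gave 510 to 752 probe sets in the first comparison and 4 to 6, 4, 1 to 4 and 8 to 9 members in the 4 comparisons; the third had 1 without day 18 sample 1. Members called against day 0 were 10 to 12, and at neighbouring days 0 to 4, with 0 without day 14 sample 1 or 2 and 4 without day 20 sample 2. Kitl minus Kit ranged from -1.56 to -1.05, from -1.23 to -0.64 and from -0.91 to -0.32 in the first 3 comparisons.

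The sample numbers were not used to pair the samples, since same-numbered deviations correlated above 0.1 in 28, 31 and 22 of 55 pairs of days on types A, B and C and not in all. Some measures did go with the number: the GAPDH ratio at days 6 to 20, and the germ cell markers, which were lower in sample 1 at every day from 0 to 20. With the replicate number as a block, probe sets called were 12116 by the F-test and 605, 2279, 3214 and 7159 in the comparisons of spans, and members called were 13, 6, 4, 3 and 9.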
